A study of Mus musculus with 12 samples.

Results

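The 32 genes described here encode the unfolded protein response of the endoplasmic reticulum (ER) and the machinery that folds, checks and exports proteins there. A gene counted as a member if it carried 1 of 32 listed symbols, and it was read from the transcript clusters to which the platform annotation gives that symbol alone. All 32 were found among the 19938 genes with such a cluster, and all 32 passed the filter on low values that left 15868 genes for testing. They were grouped by role into 12 luminal chaperones and co-chaperones, 3 protein disulfide isomerases, 7 genes of ER-associated degradation, 3 stress sensors with the transcription factor Xbp1, and 6 genes of translocation, signal peptide removal and glycosylation.

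Secreted and membrane proteins enter the ER through the Sec61 channel, are folded by chaperones such as BiP and by disulfide isomerases, and are returned to the cytosol for degradation if they fail to fold. When unfolded protein builds up, the sensors IRE1 (gene Ern1), PERK (Eif2ak3) and ATF6 become active in the ER membrane. IRE1 splices the Xbp1 messenger RNA, and the XBP1 and ATF6 proteins then switch on chaperone and degradation genes, while PERK slows protein synthesis. Arrays of this kind measure messenger RNA, and neither sensor activity nor Xbp1 splicing can be read from them. Keratinocytes send adhesion molecules, secreted proteases and growth factors through this route.

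Gene expression was measured on 12 Affymetrix Mouse Gene 1.0 ST arrays of primary FVB/N mouse keratinocytes, the epithelial cells that build the epidermis, with 3 arrays in each of 4 groups. Wild-type cells were the controls. RAS cells were wild-type cells that had received v-rasHa, the oncogenic Hras of a mouse sarcoma virus, by transduction. MT-HGF cells came from mice in which the metallothionein promoter, active in many tissues, drives a transgene for hepatocyte growth factor, the ligand of the receptor MET. These 3 groups were kept in regular medium without starvation, and a transduction of 3 days is given for them together, but whether control cells went through a mock step was not stated. The fourth group was MT-HGF cells that were mock transduced, kept in 8% serum and exposed for 24 h to AG1478, an inhibitor of the EGFR tyrosine kinase. Its growth, extraction and labelling are described separately from those of the other arrays and no vehicle-treated arrays were used here, so the compound and these steps cannot be told apart. Mouse ages were not stated. The replicates of the first 3 groups are called biological but not traced to different mice or dishes, and p-values therefore cover the array-to-array spread alone, which can be technical.

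Levels are log2 values, so a difference of 1 is a 2-fold change. Array medians lay between 6.77 and 6.84, and within a group each array correlated with the rest at 0.993 to 0.997 on average. Each array's background, the 95th percentile of 158 chemosensory receptor genes, lay between 6.80 and 7.13, and all 32 members were above it on all 12 arrays. All 10 keratinocyte markers tested were above background on at least 1 array of every group, with a summed level of 15.25 to 15.37 on the 12 arrays. Fibroblast markers moved between groups: their summed level was 13.25 to 13.34 in wild-type cells, 12.66 to 12.67 in RAS cells, 12.76 to 12.84 in MT-HGF cells and 12.85 to 12.90 after AG1478. Of the 13 tested, 9, not necessarily the same ones, were lower than in wild type in each of the other 3 groups. The shares of all genes lower were 19.9% in RAS, 23.9% in MT-HGF and 26.2% in treated cells. In RAS cells 0 were higher (12.6% of all genes), but 3 were higher in MT-HGF (17.1%) and in treated cells (16.8%). Among these was Dcn, the gene of the matrix protein decorin, higher by 1.77 and 1.56. Lum and Dpt were not above background in any group. All 8 melanocyte markers were above background on at least 1 array of every group. Their summed levels were 13.72 to 13.85, 13.79 to 13.93, 13.36 to 13.53 and 13.37 to 13.52 in the same order. In MT-HGF cells 6 of 8 were lower than in wild-type cells, against 23.9% of all genes. The leukocyte markers Ptprc, Itgam and Csf1r and the endothelial markers Pecam1, Cdh5, Tek and Vwf were not above background in any group. The summed level of the 6 leukocyte markers tested was 10.01 to 10.09 in wild-type, 10.59 to 10.76 in RAS, 10.54 to 10.68 in MT-HGF and 10.43 to 10.70 in treated cells. Of these 6, Cd68, a macrophage lysosome gene, was higher than in wild type by 1.29, 1.28 and 1.12 in the last 3 groups. Lyz2, a macrophage lysozyme gene, was above background on at least 1 array in wild-type cells and on no array of the other groups. Its difference from wild type was -0.71 or lower in RAS and -0.78 or lower in MT-HGF cells. In whole cultures, fewer cells of a type and less RNA per cell cannot be told apart, and the part of these cells in the results below was not tested. Of the markers of plasma cells, in which this machinery is abundant, Mzb1, Tnfrsf17, Irf4 and Pou2af1 were not above background in any group. The remaining one tested, Prdm1, named after its values were seen, was higher by 2.69 in RAS and by 2.29 in MT-HGF cells than in wild type.

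Many genes of the unfolded protein response carry an ER stress element (ERSE) close to their start site, in which a CCAAT box and the letters CCACG lie 9 bases apart. The factor NF-Y binds the first and ATF6 or XBP1 the second. In the related ERSE-II, ATTGG, which is CCAAT on the other strand, and CCACG lie 1 base apart. RefSeq windows from 250 bases before to 50 bases after the start site (build GRCm38.p6) were searched on both strands for exact matches. They cover 25 of the 32 members and 27025 genes in all. Hyou1, Manf, Derl1, Atf6, Sec61a1, Sec11c and Ostc were not among them. An ERSE was found in 9 of 25 members (36.0%) and in 0.137% of all genes, and an ERSE-II in 2 members (8.00%) and in 0.0444% of all genes. The separate pieces, which are contained in the longer elements, were more widespread: CCACG was in 80.0% of the members and 35.5% of all genes, and CCAAT in 80.0% and 41.1%. The letters TGACGTGG of the unfolded protein response element (UPRE) were in 0 of 25 members and 0.714% of all genes. The members were listed as genes of this response, in which the element is known, so their larger share is not an independent result. A match is a description of letters and not a bound site. The elements are shown because they can be set against the array values of the same genes further on. They are printed in the direction of the element with 10 bases on each side, capitals mark the paired letters CCAAT or ATTGG and CCACG, and positions count from the start site.
Hspa5 (chr2:34772015-34772053, plus strand, bases -65 to -47): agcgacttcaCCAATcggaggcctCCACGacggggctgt
Calr (chr8:84847065-84847103, plus strand, bases -162 to -144): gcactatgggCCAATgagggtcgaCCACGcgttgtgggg
Herpud1 ERSE-II (chr8:94386367-94386397, plus strand, bases -52 to -42): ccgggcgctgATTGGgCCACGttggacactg
Derl3 (chr10:75893232-75893270, minus strand, bases -156 to -138): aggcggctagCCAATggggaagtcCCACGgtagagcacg
Hsp90b1 (chr10:86705628-86705666, minus strand, bases -212 to -194): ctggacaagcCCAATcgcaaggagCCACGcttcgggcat
Hsp90b1 (chr10:86705523-86705561, plus strand, bases -107 to -89): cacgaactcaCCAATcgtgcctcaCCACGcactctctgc
Canx (chr11:50325790-50325828, minus strand, bases -145 to -127): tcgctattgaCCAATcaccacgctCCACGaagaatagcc
Pdia6 (chr12:17266481-17266519, plus strand, bases -98 to -80): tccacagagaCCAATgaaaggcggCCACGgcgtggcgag
Dnajc3 (chr14:118937817-118937855, plus strand, bases -105 to -87): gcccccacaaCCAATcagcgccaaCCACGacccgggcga
Creld2 (chr15:88819510-88819548, minus strand, bases -126 to -108): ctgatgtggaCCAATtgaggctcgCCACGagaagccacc
Syvn1 (chr19:6046522-6046560, plus strand, bases -44 to -26): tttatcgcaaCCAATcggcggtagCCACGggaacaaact

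Hsp90b1 held 2 of these elements. The other ERSE-II match, in Dnajb11, lay 8 to 18 bases after the start site. For 4 of the 5 roles, the gene in the table with the largest rise in MT-HGF cells is shown with the 250 bases before its start site. Derl3, Creld2 and Pdia6 have an ERSE, marked in capitals as a whole. Ern1, the gene of the sensor IRE1, has none, and its capitals mark a lone CCACG.
Derl3 (chr10:75893148-75893397, plus strand): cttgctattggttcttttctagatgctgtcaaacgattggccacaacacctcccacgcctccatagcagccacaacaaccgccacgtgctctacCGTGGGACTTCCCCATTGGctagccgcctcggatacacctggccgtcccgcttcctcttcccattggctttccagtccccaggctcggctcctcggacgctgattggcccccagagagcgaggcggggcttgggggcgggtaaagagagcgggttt
Creld2 (chr15:88819396-88819645, plus strand): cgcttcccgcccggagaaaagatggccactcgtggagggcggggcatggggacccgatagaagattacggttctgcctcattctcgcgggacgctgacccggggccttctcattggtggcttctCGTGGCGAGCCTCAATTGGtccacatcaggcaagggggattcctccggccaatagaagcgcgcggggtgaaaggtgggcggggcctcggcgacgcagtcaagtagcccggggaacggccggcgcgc
Pdia6 (chr12:17266339-17266588, plus strand): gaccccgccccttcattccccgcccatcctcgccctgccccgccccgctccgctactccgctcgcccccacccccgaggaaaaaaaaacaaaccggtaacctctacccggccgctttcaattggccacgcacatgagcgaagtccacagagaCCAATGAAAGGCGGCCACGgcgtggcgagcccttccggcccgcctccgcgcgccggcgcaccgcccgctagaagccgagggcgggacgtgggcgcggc
Ern1 (chr11:106487797-106488046, minus strand): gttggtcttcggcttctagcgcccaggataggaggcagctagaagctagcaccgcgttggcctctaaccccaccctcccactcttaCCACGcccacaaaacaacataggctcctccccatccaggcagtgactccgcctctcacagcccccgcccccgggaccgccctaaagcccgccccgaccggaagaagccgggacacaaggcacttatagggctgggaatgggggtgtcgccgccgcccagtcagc

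Genes of the unfolded protein response and ER folding were higher in both RAS and MT-HGF cells than in wild-type cells, and more of them in MT-HGF cells. In RAS cells 18 of the 32 members were higher and 0 lower at a limma adjusted p under 0.05, against 12.6% and 19.9% of all genes tested. The median difference of the members was 0.31 and that of all genes -0.02. In MT-HGF cells 30 members were higher and 0 lower, against 17.1% and 23.9% of all genes, with medians of 0.58 and -0.03. In AG1478-treated MT-HGF cells 26 were higher than in wild type and 0 lower, against 16.8% and 26.2%, with medians of 0.46 and 0.00. These 3 comparisons share the wild-type arrays, so their counts are not independent of one another.

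The direct comparisons were smaller. MT-HGF cells had 16 members higher and 1 lower than RAS cells, against 13.4% and 12.6% of all genes, with a median of 0.22 for the members and -0.02 for all genes. AG1478-treated MT-HGF cells had 1 member higher and 9 lower than untreated MT-HGF cells, against 6.57% and 9.91%, with medians of -0.15 and 0.02. Against RAS cells, treated cells had 11 members higher and 4 lower, against 16.3% and 20.4%, with medians of 0.12 and 0.02. The arrays of the 2 groups did not overlap for 23 members in RAS against wild type (42.9% of all genes), for 30 in MT-HGF against wild type (50.4%) and for 29 in treated cells against wild type (50.5%). They did not overlap for 21 members in MT-HGF against RAS (39.2%), for 17 after AG1478 (34.2%) and for 19 in treated cells against RAS (45.8%).

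Wild-type cells had the lowest of the 4 group means for 29 of the 32 members. The exceptions were Derl1, whose lowest mean was in RAS cells, and Dnajc10 and Derl2, whose lowest means were in treated cells. The highest mean was in MT-HGF cells for 21 members, in treated cells for Calr, Sdf2l1, Edem1, Syvn1, Derl3 and Xbp1, and in RAS cells for Hspa5, Dnajb9, Dnajc3, Dnajc10 and Eif2ak3. Neighbouring means often differed by less than the spread between arrays.

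**Figure D1:**
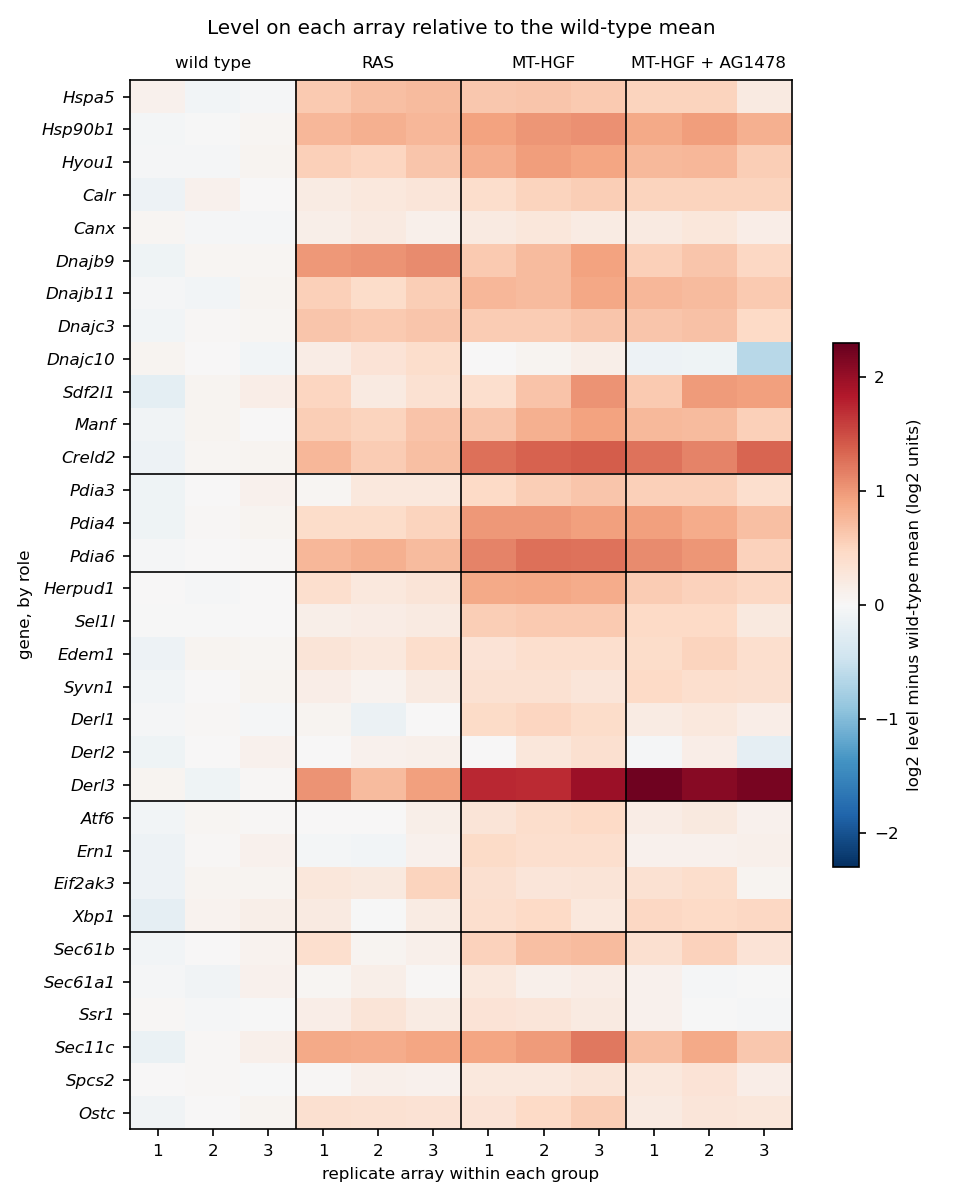
Level of each of the 32 genes (rows, by role, separated by lines) on each of the 12 arrays (columns, by group), as the log2 difference from the mean of the 3 wild-type arrays; red is higher and blue lower. Most rows of the chaperone and disulfide isomerase genes are red in the RAS, MT-HGF and AG1478-treated columns, some of them pale. Derl3 is the darkest row, and Dnajc10 is blue in treated cells.

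Among the luminal chaperones and co-chaperones, 9 of 12 were higher in RAS cells and 11 of 12 in MT-HGF cells than in wild type. Hspa5, which encodes BiP, the main Hsp70 chaperone of the ER, read 11.62, 11.46 and 11.50 on the wild-type arrays, 12.14, 12.22 and 12.26 on the RAS arrays and 12.15, 12.16 and 12.13 on the MT-HGF arrays. The RAS and MT-HGF arrays overlapped with each other and lay above all wild-type arrays. Hspa5 rose by 0.68 ± 0.081 in RAS cells (SE; limma adjusted p = 4.90e-06) and by 0.62 ± 0.081 in MT-HGF cells (9.89e-06), and the 2 groups differed by -0.06 (interval at 95% -0.23 to 0.11). In treated cells it read 12.04, 12.04 and 11.73, between the wild-type and the MT-HGF arrays, and was 0.41 above wild type.

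Hsp90b1, the gene of the Hsp90 chaperone of the ER (GRP94), read 10.78, 10.82 and 10.88 in wild-type, 11.60, 11.65 and 11.60 in RAS and 11.76, 11.85 and 11.89 in MT-HGF cells. No RAS array overlapped with the wild-type or the MT-HGF arrays. Hsp90b1 rose 1.73-fold in RAS cells (0.79 ± 0.064; limma adjusted p = 4.58e-08) and 2.01-fold in MT-HGF cells (1.01 ± 0.064; 1.42e-09). Hyou1, an Hsp70-type nucleotide exchange partner of BiP, followed the same order, with 0.56 in RAS and 0.90 in MT-HGF cells, and so did Manf, a secreted ER stress-responsive factor, with 0.58 and 0.79. The lectin chaperones, which hold glycoproteins during folding, moved less. Calr was higher by 0.24 in RAS and by 0.50 in MT-HGF cells, the first not called without the first wild-type array (limma adjusted p = 0.0601). Canx was higher by 0.22 in MT-HGF cells, with 0.16 in RAS cells (limma adjusted p = 0.0574).

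Creld2, which encodes a secreted ER stress-inducible protein, had the largest rise of this role in MT-HGF cells. It read 9.06, 9.23 and 9.25 in wild-type, 9.95, 9.77 and 9.88 in RAS, 10.44, 10.53 and 10.58 in MT-HGF and 10.42, 10.32 and 10.52 in treated cells. The levels form 3 steps, with untreated and treated MT-HGF arrays overlapping at the top. Creld2 rose 1.61-fold in RAS cells (0.69 ± 0.077; limma adjusted p = 2.57e-06) and 2.52-fold in MT-HGF cells (1.34 ± 0.077; 4.32e-10). Its ERSE lies at bases -126 to -108 in the sequence printed above.

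Of the DnaJ co-chaperones, which hand clients to BiP, Dnajb9 followed another order. It read 9.65, 9.79 and 9.79 in wild-type, 10.74, 10.78 and 10.82 in RAS, 10.34, 10.46 and 10.66 in MT-HGF and 10.28, 10.37 and 10.21 in treated cells. The RAS arrays were the highest and lay apart from the other groups. Dnajb9 rose 2.05-fold in RAS cells (1.04 ± 0.080; limma adjusted p = 2.32e-08), the only member past 2-fold there (2.58% of all genes), and 1.67-fold in MT-HGF cells (0.74 ± 0.080; 9.71e-07). Dnajb11 had the opposite order, with 0.52 in RAS and 0.79 in MT-HGF cells, and Dnajc3, which also encodes an inhibitor of PERK, was higher by 0.62 and 0.60. Sdf2l1, a partner of Dnajb11 in the BiP cycle, varied most between arrays. It read 10.20, 10.48 and 10.57 in wild-type, 10.91, 10.63 and 10.77 in RAS and 10.80, 11.08 and 11.45 in MT-HGF cells. It was higher in MT-HGF cells by 0.69 ± 0.14 (limma adjusted p = 7.80e-04), and its 0.35 in RAS cells missed the threshold (0.0696).

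Dnajc10, whose product is a reductase of misfolded disulfides, was the chaperone-group gene that was called in neither comparison with wild type. It read 8.81, 8.74 and 8.68 in wild-type, 8.91, 9.05 and 9.14 in RAS, 8.74, 8.80 and 8.87 in MT-HGF and 8.62, 8.65 and 8.11 in treated cells. The wild-type and MT-HGF arrays overlapped, RAS was highest, and the third treated array was far below every other one. Its differences from wild type were 0.29 in RAS (limma adjusted p = 0.0578) and 0.06 in MT-HGF cells (0.735).

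**Figure D2:**
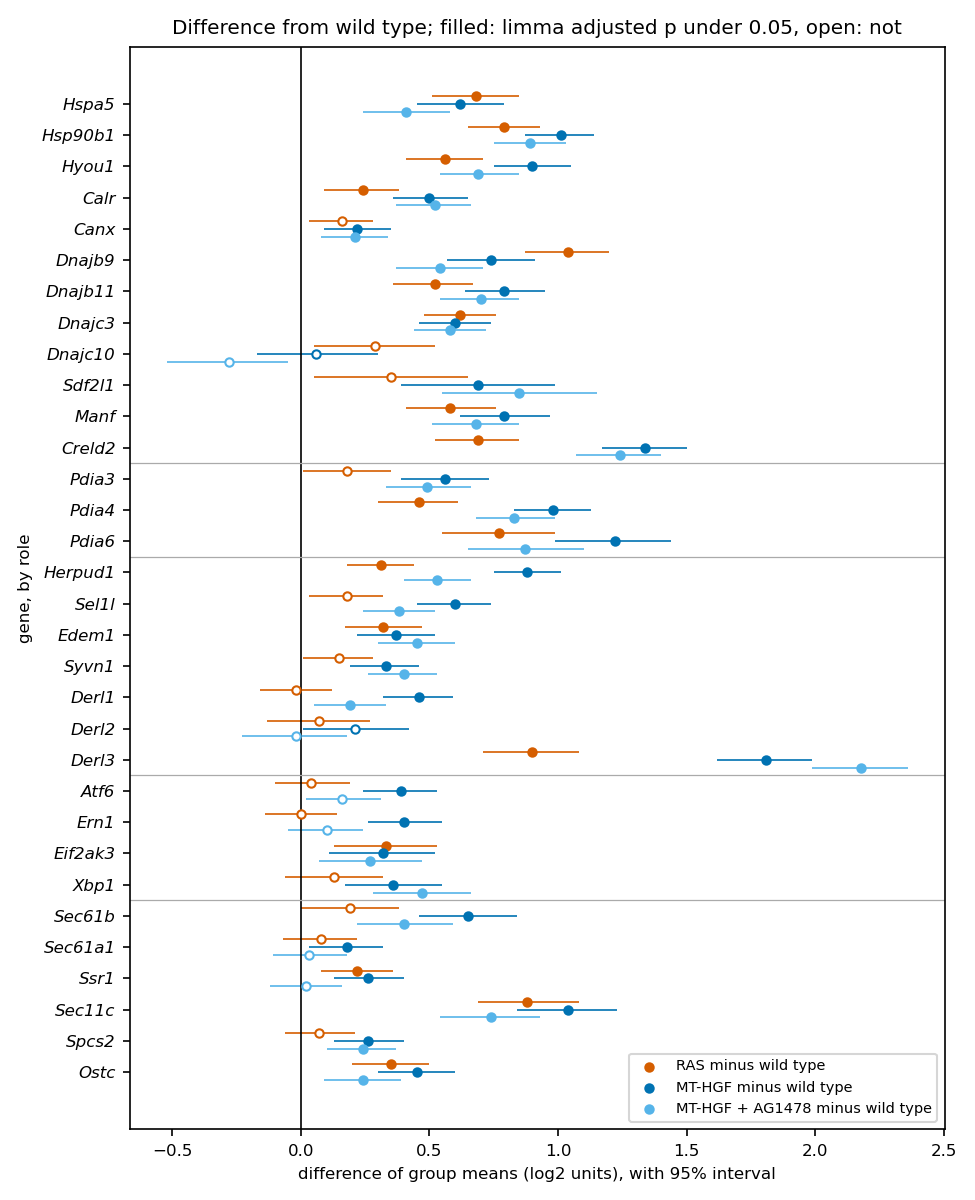
Difference of the RAS (orange), MT-HGF (dark blue) and AG1478-treated MT-HGF (light blue) group means from wild type for the 32 genes, in log2 units, with 95% intervals of the limma fit; filled points have an adjusted p under 0.05. Derl3 reaches 1.81 in MT-HGF and 2.18 in treated cells, while Dnajb9 and Hspa5 have their largest difference in RAS cells.

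The 3 protein disulfide isomerases, which form and rearrange disulfide bonds, were all higher in MT-HGF cells, and 2 of them in RAS cells. Pdia6 read 9.35, 9.38 and 9.40 in wild-type, 10.14, 10.20 and 10.11 in RAS, 10.53, 10.64 and 10.62 in MT-HGF and 10.46, 10.40 and 9.91 in treated cells. The first 3 groups lay apart from one another, and the third treated array lay below the RAS arrays. Pdia6 rose 1.71-fold in RAS cells (0.77 ± 0.11; limma adjusted p = 2.36e-05) and 2.32-fold in MT-HGF cells (1.22 ± 0.11; 7.61e-08). Pdia4 read 9.67 to 9.83 in wild-type, 10.18 to 10.28 in RAS and 10.70 to 10.76 in MT-HGF cells, with rises of 0.46 and 0.98. A second cluster of Pdia4 stayed below background on all 12 arrays and read 0.32 higher in MT-HGF cells. Pdia3, the isomerase that works with the lectin chaperones, rose by 0.56 in MT-HGF cells, and its 0.18 in RAS cells was not called (limma adjusted p = 0.101).

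ER-associated degradation moves misfolded proteins to the cytosol for destruction by the proteasome. Of its 7 members, 3 were higher in RAS cells and 6 in MT-HGF cells than in wild type. Derl3, which encodes a derlin, a membrane protein of the export channel, had the largest difference of all 32 members. It read 7.25, 7.08 and 7.21 in wild-type, 8.21, 7.90 and 8.12 in RAS, 8.91, 8.90 and 9.14 in MT-HGF and 9.42, 9.28 and 9.37 in treated cells. The 4 groups did not overlap and rose in that order. Derl3 was 1.87-fold higher in RAS cells (0.90 ± 0.087; limma adjusted p = 4.42e-07) and 3.50-fold higher in MT-HGF cells (1.81 ± 0.087; 4.97e-11). Its wild-type level lay just above background, which can understate a fold change. The other derlins moved less: Derl1 was higher by 0.46 in MT-HGF cells and at -0.02 in RAS cells, and Derl2 was called in neither comparison, with 0.21 (limma adjusted p = 0.0929) and 0.07 (0.673).

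Herpud1, which encodes a membrane protein that organises the degradation complex, read 10.10, 10.06 and 10.10 in wild-type, 10.47, 10.33 and 10.39 in RAS, 10.97, 10.98 and 10.94 in MT-HGF and 10.67, 10.62 and 10.57 in treated cells. No 2 groups overlapped. Herpud1 rose by 0.31 ± 0.061 in RAS cells (limma adjusted p = 8.00e-04) and by 0.88 ± 0.061 in MT-HGF cells (4.65e-09). Of the ubiquitin ligase complex, Sel1l, the adaptor, rose by 0.60 in MT-HGF cells and Syvn1, the ligase HRD1, by 0.33. In RAS cells they were at 0.18 (limma adjusted p = 0.0554) and 0.15 (0.0888). Edem1, which picks out misfolded glycoproteins, was higher by 0.32 in RAS and by 0.37 in MT-HGF cells.

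The sensors and Xbp1 changed by less than 1.5-fold in every comparison. In RAS cells 1 of 4 was higher and in MT-HGF cells all 4. Ern1 read 8.71, 8.85 and 8.91 in wild-type, 8.78, 8.76 and 8.92 in RAS, 9.26, 9.21 and 9.21 in MT-HGF and 8.91, 8.91 and 8.94 in treated cells. The MT-HGF arrays stood above all others, and the RAS arrays overlapped with the wild-type arrays. Ern1 rose by 0.40 ± 0.068 in MT-HGF cells (limma adjusted p = 1.33e-04) and was at 0.00 in RAS cells (interval -0.14 to 0.14). Atf6 read 9.25, 9.36 and 9.33 in wild-type, 9.31, 9.31 and 9.45 in RAS, 9.60, 9.72 and 9.77 in MT-HGF and 9.48, 9.54 and 9.41 in treated cells. It rose by 0.39 ± 0.070 in MT-HGF cells (limma adjusted p = 2.66e-04) and was at 0.04 in RAS cells (interval -0.10 to 0.19).

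Eif2ak3, the gene of PERK, was the sensor that rose in RAS cells, by 0.33 ± 0.095 (limma adjusted p = 0.0121), with 0.32 in MT-HGF cells (0.0130). Without the first wild-type array it was called in neither, and without the third RAS array not in RAS cells (highest adjusted p of 0.0616 for MT-HGF and 0.0697 for RAS), which leaves 0 of 4 higher in RAS cells. It read 7.80, 7.98 and 7.98 in wild-type, 8.18, 8.15 and 8.43 in RAS and 8.29, 8.20 and 8.22 in MT-HGF cells, and the RAS and MT-HGF arrays overlapped. Xbp1 read 10.27, 10.56 and 10.61 in wild-type, 10.69, 10.47 and 10.67 in RAS, 10.86, 10.93 and 10.73 in MT-HGF and 10.96, 10.94 and 10.95 in treated cells. The first wild-type array was the lowest, and the RAS arrays overlapped with the wild-type arrays. Xbp1 rose by 0.36 ± 0.090 in MT-HGF cells (limma adjusted p = 0.00408) and was at 0.13 in RAS cells (0.325).

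**Figure D3:**
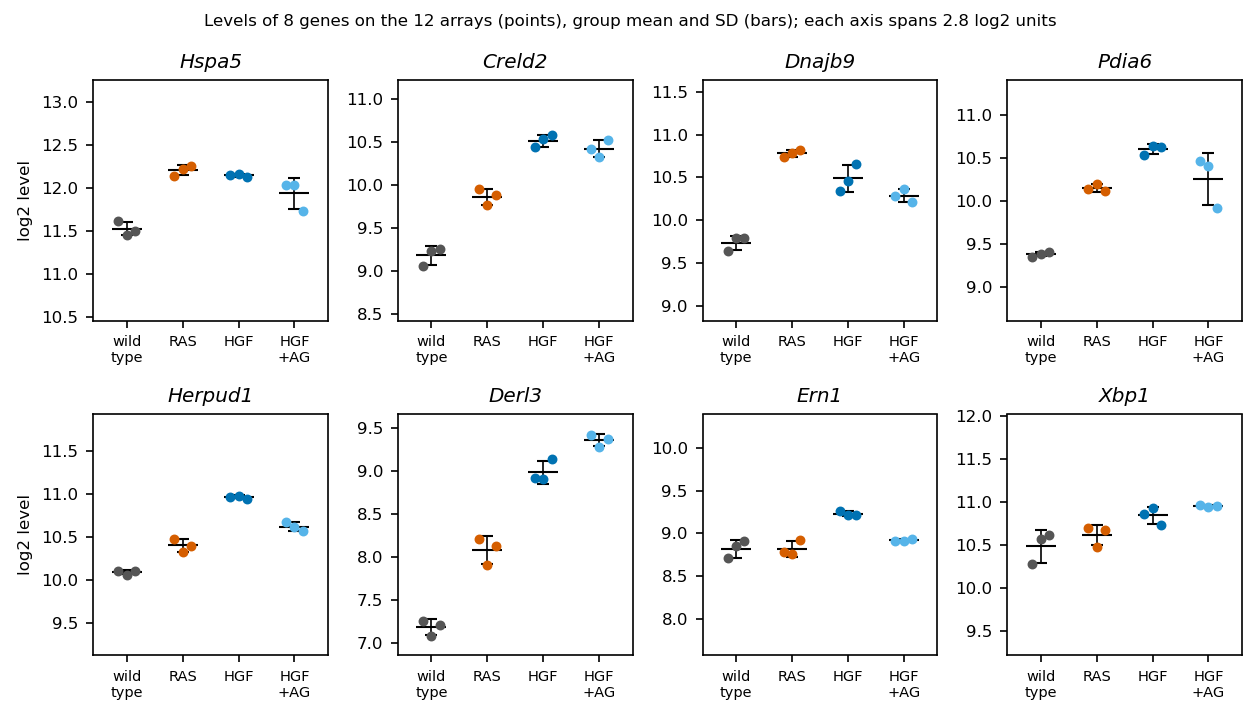
Log2 levels of Hspa5, Creld2, Dnajb9, Pdia6, Herpud1, Derl3, Ern1 and Xbp1 on the 12 arrays (points), with group mean and SD of 3 arrays (bars), on axes of equal span. Derl3 steps up through all 4 groups, Dnajb9 is highest in RAS cells, and Ern1 and Herpud1 are highest in untreated MT-HGF cells.

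Of the 6 genes of translocation, signal peptide removal and glycosylation, 3 were higher in RAS cells and 6 in MT-HGF cells. Sec11c, a catalytic subunit of the signal peptidase, read 7.47, 7.65 and 7.75 in wild-type, 8.51, 8.48 and 8.53 in RAS, 8.54, 8.61 and 8.84 in MT-HGF and 8.33, 8.51 and 8.25 in treated cells. The wild-type arrays stood apart below the rest, and the RAS arrays lay just below the MT-HGF arrays. Sec11c rose 1.84-fold in RAS cells (0.88 ± 0.091; limma adjusted p = 9.28e-07) and 2.05-fold in MT-HGF cells (1.04 ± 0.091; 8.66e-08). Spcs2, another signal peptidase subunit, was higher by 0.26 in MT-HGF cells, with 0.07 in RAS cells (limma adjusted p = 0.438).

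Sec61b, a small subunit of the translocation channel, read 8.45 to 8.59 in wild-type, 8.58 to 8.89 in RAS and 9.04 to 9.24 in MT-HGF cells. It rose by 0.65 ± 0.088 in MT-HGF cells (limma adjusted p = 1.46e-05), and 2 further clusters of the gene both read 0.55 higher there. Of these, 1, with a wild-type mean of 6.79, was above background on only 6 of the 12 arrays, and the other on all 12. The 0.19 of Sec61b in RAS cells was not called (limma adjusted p = 0.117). Sec61a1, the pore-forming subunit, had the smallest called difference, 0.18 ± 0.068 in MT-HGF cells (0.0461), and this call was lost in 8 of 12 fits that left out 1 array. Ssr1, a subunit of the translocon-associated complex, was higher by 0.22 in RAS and by 0.26 in MT-HGF cells, the first called in 9 of the 12 fits and missed without the second wild-type, the third wild-type or the second RAS array. Ostc, a subunit of the oligosaccharyltransferase that attaches sugars, was higher by 0.35 and 0.45. Over all roles, 5 members passed 2-fold in MT-HGF cells (3.09% of all genes): Hsp90b1, Creld2, Pdia6, Derl3 and Sec11c.

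MT-HGF and RAS cells were compared directly to see where the 2 cultures differ. The 16 members that were higher in MT-HGF cells came from every role: Hsp90b1, Hyou1, Calr, Dnajb11 and Creld2 of the chaperones, Pdia3, Pdia4 and Pdia6, Herpud1, Sel1l, Derl1 and Derl3 of degradation, Atf6 and Ern1 of the sensors, and Sec61b and Spcs2. Spcs2 was called in 6 of 12 fits that left out 1 array, and missed without any 1 of the RAS or MT-HGF arrays (highest limma adjusted p of 0.112). Hsp90b1 was called in 9, missing without the first RAS, the second MT-HGF or the third MT-HGF array, and Dnajb11 in 11, missing without the second RAS array. Derl3 had the largest difference, 0.91 ± 0.087 (limma adjusted p = 1.25e-06), followed by Creld2 with 0.65 ± 0.077 (1.17e-05), Herpud1 with 0.57 ± 0.061 (4.30e-06) and Pdia4 with 0.52 ± 0.072 (5.37e-05). Derl1, at RAS levels of 10.61, 10.42 and 10.55 against 10.99, 11.05 and 10.97, differed by 0.48, and Sel1l by 0.42. Dnajb9 was the 1 member that was lower, by -0.29 ± 0.080 (0.0123). Without the first or the second MT-HGF array 0 members were lower. Without the third treated array, which alters the shared estimate of spread, 2 were lower, Dnajc10 having joined Dnajb9.

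AG1478-treated cells were compared with untreated MT-HGF cells, whose growth, extraction and labelling are described separately. Whether the untreated cells had the same mock step and serum was not stated, so none of these steps can be told apart from the compound. The differences were small, from -0.35 to 0.37. The 9 lower members were Dnajc10, Pdia6, Herpud1, Sel1l, Derl1, Atf6, Ern1, Ssr1 and Sec11c. By role, 1 of 12 chaperones, 1 of 3 disulfide isomerases, 3 of 7 degradation genes, 2 of the 4 sensors and Xbp1, and 2 of 6 translocation genes were lower. Of all genes 9.91% were lower, and the chaperones, at 8.33%, lay near that share. Herpud1 was lower by -0.35 ± 0.061 (limma adjusted p = 7.34e-04), Ern1 by -0.30 ± 0.068 (0.00481) and Derl1 by -0.26 ± 0.065 (0.00942). For each of these 3 the treated arrays lay below the untreated ones without overlap, as the array values above show for Herpud1 and Ern1. Derl1 read 10.73, 10.79 and 10.70 in treated cells.

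Derl3 went the other way. Its treated arrays, at 9.42, 9.28 and 9.37, lay above the untreated 8.91, 8.90 and 9.14, a difference of 0.37 ± 0.087 (limma adjusted p = 0.00703). Most chaperones were not called, among them Hspa5 at -0.21 (0.0920), Creld2 at -0.10 (interval -0.26 to 0.07), Hsp90b1 at -0.12 (-0.26 to 0.02), Dnajc3 at -0.02 (-0.16 to 0.12) and Calr at 0.02 (-0.13 to 0.16). Xbp1 was at 0.11 (-0.08 to 0.30).

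Single arrays carried part of these calls. The third treated array was the lowest of its group for Pdia6 (9.91 beside 10.46 and 10.40), Dnajc10 (8.11 beside 8.62 and 8.65), Hspa5 (11.73 beside 12.04 and 12.04) and Sel1l (10.15 beside 10.38 and 10.37). Without it 3 members were lower, without the second MT-HGF array 2, and without the third MT-HGF array 4. Quantile normalization of the 12 arrays a second time left 5, and a fit of the 6 arrays alone left 4. Herpud1, Ern1 and Derl3 were called in all 12 fits that left out 1 array, with differences of -0.37 to -0.32, -0.31 to -0.29 and 0.33 to 0.45. Derl1 was called in 11 of the 12, and missed without the second MT-HGF array (highest limma adjusted p of 0.0539). A test against a fold of 1.2 called 0 members in either direction.

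**Figure D4:**
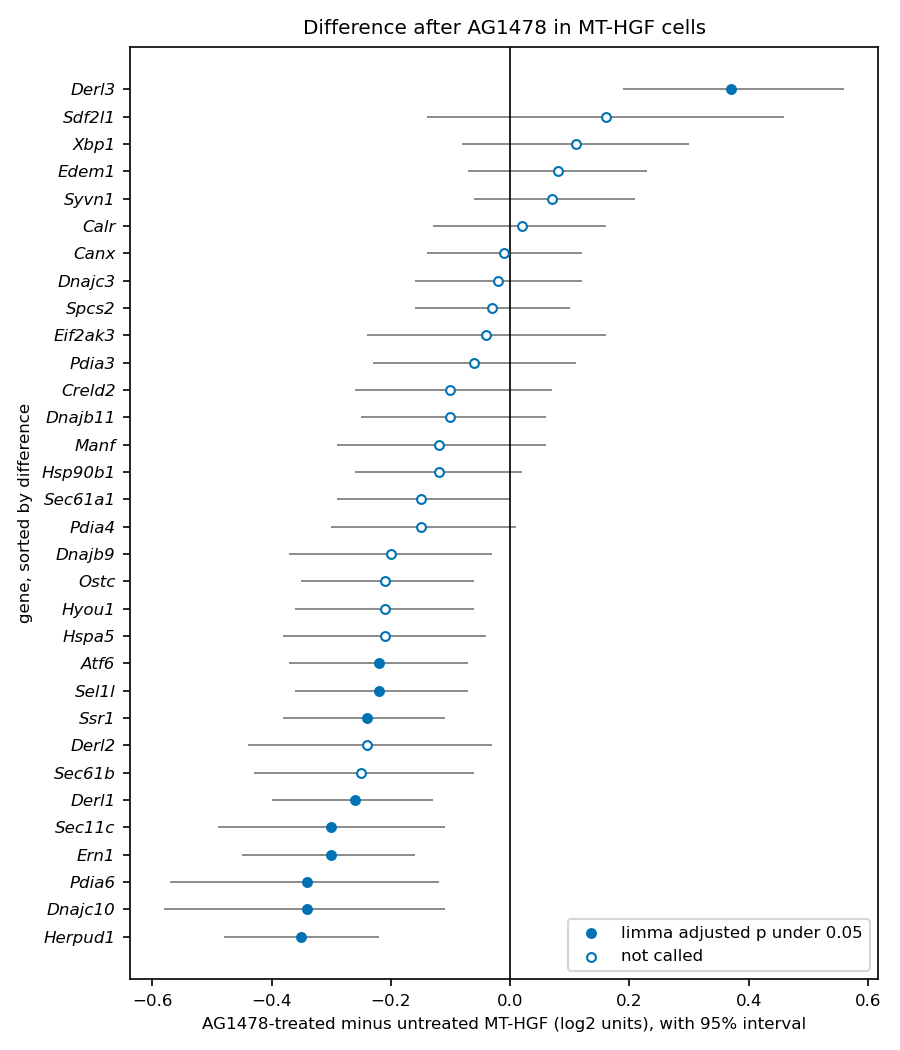
Difference between AG1478-treated and untreated MT-HGF cells for the 32 genes, sorted, in log2 units with 95% intervals of the limma fit; filled points have an adjusted p under 0.05. The intervals of 9 filled points lie below 0 and that of Derl3 above it, and no difference exceeds 0.37 in size.

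Set against wild type, treated MT-HGF cells had all 3 disulfide isomerases, 11 of 12 chaperones, 6 of 7 degradation genes, 2 of the 4 sensors and Xbp1, and 4 of 6 translocation genes higher. The largest differences were those of Derl3, 4.52-fold (2.18 ± 0.087; limma adjusted p = 7.19e-12), and Creld2, 2.36-fold (1.24 ± 0.077; 1.38e-09). These were the 2 members past 2-fold (2.74% of all genes). The members not called were Dnajc10 at -0.28 (0.0514), Derl2 at -0.02, Atf6 at 0.16 (0.0716), Ern1 at 0.10 (0.269), Sec61a1 at 0.03 and Ssr1 at 0.02. Derl1 (0.19) was called in 8 and Eif2ak3 (0.27) in 9 of 12 fits that left out 1 array, both missing without the first wild-type, the first treated or the second treated array, and Derl1 also without the third wild-type array. Dnajc10 was called lower without the first or the second treated array, which made 1 lower member.

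Against RAS cells, treated cells had Calr, Sdf2l1, Creld2, Pdia3, Pdia4, Herpud1, Sel1l, Syvn1, Derl1, Derl3 and Xbp1 higher. Derl3 differed by 1.28 ± 0.087 (limma adjusted p = 1.05e-08) and Creld2 by 0.55 ± 0.077 (3.11e-05). Hspa5, Dnajb9, Dnajc10 and Ssr1 were lower, Dnajb9 by -0.49 ± 0.080 (1.29e-04) and Dnajc10 by -0.57 ± 0.11 (6.77e-04). Without the second RAS array 7 members were higher, and without the third treated array 2 were lower, Dnajb9 and Dnajc10. Of 12 fits that left out 1 array, Sel1l was called in 8 (highest limma adjusted p of 0.116), Derl1 in 10, and Sdf2l1 and Herpud1 in 11. Among the lower members, Ssr1 was called in 9 of these fits and Hspa5 in 10.

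Other genes of the same machinery, taken from lists that hold no member except where stated, were counted beside the share of all genes called, which is 17.1% higher and 23.9% lower in MT-HGF against wild-type cells and 12.6% and 19.9% in RAS cells. Of 29 further folding and redox genes tested, 17 were higher and 3 lower in MT-HGF than in wild-type cells, with a median of 0.26 and a share of 58.6% higher, and 7 (24.1%) were higher and 3 lower in RAS cells. Nucb2, which encodes a calcium-binding protein of the secretory route, rose by 2.06 ± 0.12 in MT-HGF cells (limma adjusted p = 4.82e-10) and by 1.57 ± 0.12 in RAS cells (2.22e-08). Ero1a, the oxidase that recharges disulfide isomerases, rose by 1.30 ± 0.089 in MT-HGF cells (3.58e-09) and was lower by -0.70 ± 0.089 after AG1478 (3.01e-05). After AG1478, 1 of these genes was higher and 6 (20.7%) were lower, against 9.91% of all genes.

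Of 23 further degradation genes, 4 were higher and 1 lower in MT-HGF cells, and 3 and 2 in RAS cells. The shares higher, 17.4% and 13.0%, are near those of all genes. The ubiquitin ligase gene Rnf5 (0.60) and the lectin gene Os9 (0.55) rose in MT-HGF cells, while the ligase gene Rnf139 fell by 0.32. Of 19 further signalling genes, 4 were higher and 6 lower in MT-HGF cells, and 4 and 5 in RAS cells. The shares higher and lower were 21.1% and 31.6% in MT-HGF and 21.1% and 26.3% in RAS cells. Map3k5, the stress kinase ASK1, rose by 1.82 ± 0.10 in MT-HGF cells (limma adjusted p = 3.39e-10) and by 1.06 ± 0.10 in RAS cells, and was lower by -0.68 after AG1478. The ER-bound transcription factor gene Creb3l2 rose by 0.84 and its relative Creb3 fell by 0.61 in MT-HGF cells. Creb3l1, of the same family, was lower by -0.79 in RAS cells. The summed fibroblast markers were also lower there (12.66 to 12.67 against 13.25 to 13.34 in wild-type cells). They were lower in MT-HGF cells too (12.76 to 12.84), where no gene of this list fell by more than 0.61. The part of fibroblasts in this was not tested.

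Of 29 further translocation and glycosylation genes, 11 (37.9%) were higher and 4 lower in MT-HGF cells, and 6 (20.7%) and 2 in RAS cells. The signal peptidase subunit gene Spcs3 rose by 0.71 and 0.44 in these 2 comparisons. Of 20 genes of COPII vesicles, which carry folded cargo out of the ER, 10 were higher and 2 lower in MT-HGF cells, and 4 (20.0%) and 0 in RAS cells. The coat genes Sec24d and Sec23b rose by 0.48 and 0.45 in MT-HGF cells and Sec24b fell by 0.46. After AG1478, 0 were higher and 3 lower in each of these 2 lists, which is 10.3% and 15.0% lower and near the 9.91% of all genes for the first.

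Genes of the ATF4 and amino acid response, which PERK shares with other stress kinases, were counted in the same way. The list holds 1 member, Herpud1. In MT-HGF cells 18 of 26 (69.2%) were higher than in wild type and 0 lower, against 17.1% and 23.9% of all genes. In RAS cells 8 (30.8%) were higher and 9 (34.6%) lower, against 12.6% and 19.9%. After AG1478, 0 were higher and 22 (84.6%) lower than in untreated MT-HGF cells, against 6.57% and 9.91%, with a median of -0.57. In treated cells 7 (26.9%) were higher and 14 (53.8%) lower than in wild type, against 16.8% and 26.2%. The cystine transporter gene Slc7a11 rose by 1.96 ± 0.095 in MT-HGF cells (limma adjusted p = 5.11e-11). It was not among the lower genes after AG1478, at 0.19 (not called), and stood 2.15 above wild type in treated cells. Slc7a3, an arginine transporter gene, was lower by -1.93 ± 0.092 after AG1478 (limma adjusted p = 5.64e-10). Whether this list and the 32 members differ in their response was not tested. Of 16 cytosolic heat shock genes, 2 (12.5%) were higher and 7 (43.8%) lower in MT-HGF cells and 2 (12.5%) and 1 in RAS cells. Hsph1 fell by 0.54 and Hspe1 by 0.41 in MT-HGF cells, and Hsp90aa1 rose by 0.28 in RAS cells.

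Members with an ERSE or ERSE-II in the searched windows can be set beside those without one, as a description and with no test. The sets also differ in role, since no sensor, Xbp1 or translocation gene in the table had a match. Median differences in MT-HGF cells were 0.37 for sensors and Xbp1, 0.36 for translocation genes and 0.72 for chaperones. Match and role were not separated. The 11 with a match were all higher in MT-HGF cells than in wild type, by 0.22 to 1.81 with a median of 0.79. Of the 14 without a match 12 were higher, with differences of 0.06 to 0.98 and a median of 0.39, and the 7 members not in the table were all higher, with a median of 0.46. In RAS cells 9 of the 11 with a match and 5 of the 14 without were higher, with medians of 0.62 and 0.20. Of all genes tested, 17.1% were higher and 23.9% lower in MT-HGF cells, and 12.6% were higher in RAS cells. Outside the members, 16 other genes with a match were tested. In MT-HGF cells 3 of these 16 were higher and 3 lower, near the shares of all genes, with a median of -0.03. Chosen after their values were seen, the higher ones were Lgalsl (1.57), Nucb1 (0.70) and Ero1b (0.54), a paralog of Ero1a, and the lower ones Lrif1 (-0.56), Spats2l (-0.43) and Rcl1 (-0.39). Among the members without a match were Dnajb9, with the largest rise in RAS cells, and Pdia4.

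**Figure D5:**
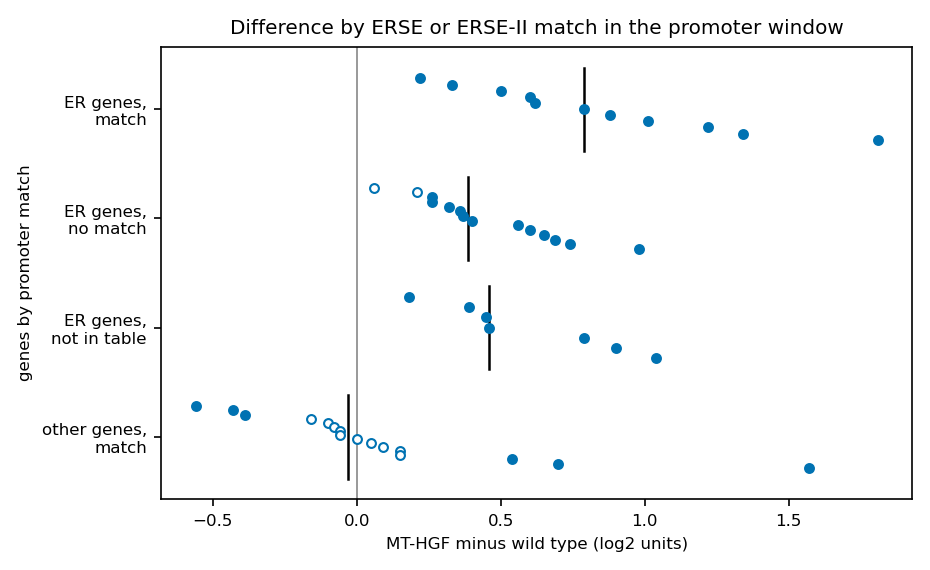
Difference between MT-HGF and wild-type cells (log2 units) for members with an ERSE or ERSE-II in the RefSeq window, members without one, members not in the table, and other genes with a match; each point is 1 gene, filled where the limma adjusted p is under 0.05, and bars mark medians. The medians are 0.79, 0.39, 0.46 and -0.03 in that order.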

How the data were processed

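Total RNA was measured on 12 arrays of the Affymetrix Mouse Gene 1.0 ST type. The deposited values are log2 expression levels made by the authors with RMA, per the submitters' processing notes; no version was stated, nor whether all arrays were normalized in 1 run. Scanner files were not used here. Of 35511 transcript clusters, 21789 had a single gene symbol in the platform annotation, 1621 had several and 12101 were not listed. A cluster was kept if at least 3 arrays placed it above their own 30th percentile, which kept 25860, and a gene was read from its kept cluster with the highest mean, which left 15868 genes. The 32 members had 36 clusters, all kept. The 2 clusters of Dnajc3 held the same values.

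A group-means model was fitted to the 12 arrays with limma 3.58.1 in R 4.3.3, with 8 residual and 8.02 prior degrees of freedom. Tests were two-sided and adjusted by Benjamini-Hochberg over all genes of a comparison. Differences are given with the SE of the fit. Groups follow the labels, which give 4 where the design text gives 3. The members and all lists were chosen with earlier results of these data known. All members are named in each comparison's account or counts; of another list, at most the 2 called genes with the largest rise and the 2 with the largest fall in a comparison, and background markers by list. Alternatives changed the filter, the choice of cluster, the scaling, the arrays fitted, the moderation of variances, array weights, the replicate number as a block and the threshold, and left out each array in turn. Arrays have no read depth, and 3 per group limit the precision. Protein sequences were not used here.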

Additional observations from a re-analysis of the deposited data

How the results depend on the processing

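None of the differences called in the 6 comparisons of the 32 genes changed sign under the alternatives run. Over all alternatives, 3964 of the single-gene results kept their side of the threshold, 165 lost their call and 95 gained one. With a test against a fold of 1.2, members higher numbered 11 for RAS against wild type, 19 for MT-HGF against wild type, 5 for MT-HGF against RAS, 0 after AG1478, 15 for treated cells against wild type and 2 against RAS. It called 0 lower members for MT-HGF against RAS, after AG1478 and for treated cells against RAS, and 1551, 2392, 748, 524, 2414 and 1592 of all genes in the 6 comparisons. With array weights, whose estimation stopped before it converged, 8096 of all genes were called for RAS against wild type and 3925 after AG1478, 2 members were lower in MT-HGF than in RAS cells, and 19 were higher in treated than in RAS cells. A repeated quantile normalization gave 5 lower members after AG1478 and 17 higher in treated than in RAS cells. Fits of the 6 arrays compared gave 2 lower members for MT-HGF against RAS and 4 after AG1478. Dnajc10 became the 1 member lower in treated than in wild-type cells with a filter at the 50th percentile, with arrays shifted to one median and with trended, robust variances.

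Leaving out 1 array at a time gave 17 to 21 higher members for RAS against wild type, 28 to 30 for MT-HGF against wild type and 14 to 18 for MT-HGF against RAS, where 0 to 2 were lower. It gave 1 higher and 2 to 10 lower after AG1478, 24 to 27 higher and 0 to 1 lower for treated cells against wild type, and 7 to 15 higher and 2 to 4 lower against RAS. All genes called ranged over 4119 to 5627, 5526 to 6914, 2961 to 4620, 1792 to 2795, 5828 to 6941 and 4844 to 6056. Same-numbered arrays did not deviate together throughout (correlations from -0.44 to 0.528), so the numbers were not taken as pairs. The correlations were 0.046 to 0.528 between MT-HGF and wild-type arrays, where differently numbered arrays gave -0.154 on average. They were 0.087 to 0.495 between MT-HGF and RAS arrays (-0.174 for other numbers) and -0.244 to 0.395 between RAS and wild-type arrays (-0.076). A pairing within these groups is therefore not excluded. The lowest, -0.44, was between treated and RAS arrays, and the treated arrays were handled separately. With the replicate number as a block, higher members numbered 19, 29, 17, 1, 26 and 11 in the 6 comparisons, and 10 were lower after AG1478.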
